A study of Homo sapiens with 13 samples.

Results

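The SGK1 and SLC2A12 locus was examined as a stretch of FOXA1 binding on the long arm of human chromosome 6. Its members were the listed FOXA1 peaks whose centre lay between 134.10 and 134.90 Mb of the genome build hg19. The stretch held 37 of the 68107 peaks of the series, which were 32 of 54855 Ishikawa peaks and 5 of 13252 Hec1A peaks. It was chosen from the positions of these peaks, so their number and density are a description and carry no test. SLC2A12 spans about 134.31 to 134.37 Mb and SGK1 about 134.49 to 134.64 Mb, each given to the nearest 10 kb.

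Chromatin was immunoprecipitated with a rabbit antibody to FOXA1 and sequenced (ChIP-seq) in Ishikawa and Hec1A, both established human endometrial adenocarcinoma cell lines. The labels describe 13 libraries of crosslinked cells, with no treatment or genetic change named for any of them (Ishikawa: 6 libraries of FOXA1 ChIP and 2 of input; Hec1A: 3 of FOXA1 ChIP and 2 of input). Input is chromatin sequenced without immunoprecipitation. The ChIP libraries of each line were pooled before peak calling, into 343739762 tags for Ishikawa and 143055568 tags for Hec1A, where a tag is a mapped read position. Each line is therefore a single pooled measurement: no value below has a replicate error, and no test between the lines was possible. Peak lists hold no expression values, so the identity of the lines could not be checked against marker genes.

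FOXA1 is a forkhead transcription factor that binds nucleosomal DNA and makes it accessible to other factors, among them the steroid hormone receptors of the uterus. SGK1 encodes a serum- and glucocorticoid-regulated kinase that acts below PI3-kinase, raises the activity of the epithelial sodium channel through the ubiquitin ligase NEDD4L, and inhibits FOXO factors. In the endometrium it is known for its part in receptivity to the embryo and in decidualization. SLC2A12 encodes GLUT12, a facilitative glucose transporter that responds to insulin. In the RefSeq gene order the protein-coding neighbours are TCF21, a transcription factor of mesenchymal cells, and TBPL1, a relative of the TATA-binding protein, on the side of SLC2A12. On the side of SGK1 they are ALDH8A1, an aldehyde dehydrogenase, and HBS1L, a factor of ribosome rescue. The positions of these neighbours in hg19 were not looked up, so some of them may lie inside the stretch.

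Both genes are read from the reverse strand, so the start of SLC2A12 is at the end of its span with the higher coordinate. RefSeq gives SGK1 3 starts, 1 at that end of the gene and 2 near the opposite end. The promoter of SLC2A12 is shown because the strongest Ishikawa peak and a Hec1A peak lay near that end, and the SGK1 promoter that holds the marked letters, at a start near the lower end of the gene, is shown for comparison. The sequences are the 250 bases before the start, from RefSeq on GRCh38.p14, a build other than that of the peaks, so no peak was placed on them. Capitals mark TGTTT or its reverse complement AAACA, the letters shared by both forms of the forkhead core that were searched. The first is at chr6:134052625-134052874 and the second at chr6:134177862-134178111, both on the reverse strand.
SLC2A12: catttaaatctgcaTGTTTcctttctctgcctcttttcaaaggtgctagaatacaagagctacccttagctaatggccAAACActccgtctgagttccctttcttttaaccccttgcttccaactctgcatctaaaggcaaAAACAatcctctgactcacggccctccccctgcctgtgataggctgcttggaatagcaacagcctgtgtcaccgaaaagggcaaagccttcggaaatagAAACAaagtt
SGK1: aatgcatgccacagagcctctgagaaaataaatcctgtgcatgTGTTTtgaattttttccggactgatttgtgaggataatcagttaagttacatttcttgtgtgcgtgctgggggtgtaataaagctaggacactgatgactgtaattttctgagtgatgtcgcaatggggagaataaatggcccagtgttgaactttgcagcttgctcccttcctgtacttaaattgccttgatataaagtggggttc

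The full forkhead core, TGTTTAC or TGTTTGC on either strand, was not among the letters of the SLC2A12 promoter or of the 3 SGK1 promoters in the table. Of all 34943 RefSeq promoters of this length, 2.98% held TGTTTAC and 3.24% held TGTTTGC. The looser TGTTTNC occurred in SLC2A12 at 1 place, 236 bases before the start on the forward strand of the gene, and in 15.5% of all promoters. The 5 letters TGTTT, which this match contains, occurred at 4 places in SLC2A12 and at 1, 0 and 0 places in the SGK1 promoters. They occurred in 40.4% of all promoters. G and C made up 46% of the SLC2A12 promoter, 41.6% of the SGK1 promoter shown and 33.6% and 76% of the other SGK1 promoters, against a median of 58%.

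In Ishikawa, FOXA1 peaks were crowded over SLC2A12, and over SGK1 they were about as dense as in the median window of the genome. The approximate span of SLC2A12 held 9 peaks in 60 kb, or 15 per 100 kb, and the span of SGK1 held 3 in 150 kb, or 2 per 100 kb. The median over windows as long as the locus was 1.88 per 100 kb. The 120 kb between the genes held 6 peaks, the 210 kb below SLC2A12 held 7, and the 260 kb above SGK1 held 7. In Hec1A, the SLC2A12 span held 0 peaks, the SGK1 span 2, and each of the other stretches 1. Ishikawa peaks had to stand 4 times above input and the recorded Hec1A call used no input, so the numbers of peaks in the lines come from unlike filters and depths. Because the spans are rounded, the side of a boundary is uncertain for the 4 Ishikawa peaks and the 1 Hec1A peak within 10 kb of one.

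**Figure D1:**
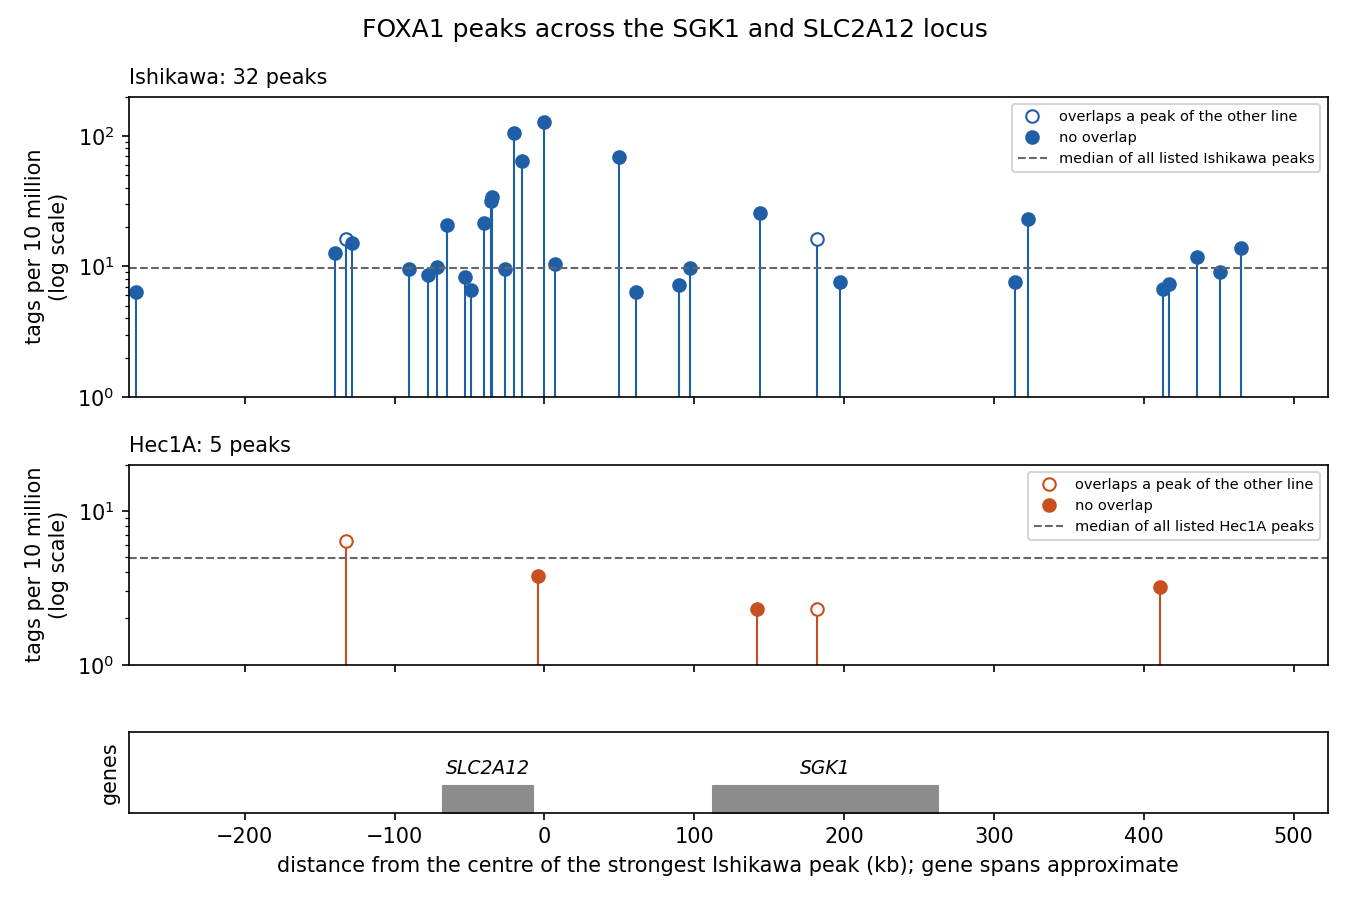
Signal of each FOXA1 peak in tags per 10000000 (log scale) against distance in kb from the centre of the strongest Ishikawa peak, for Ishikawa (top) and Hec1A (middle), with the approximate gene spans below. Open circles are peaks that overlap a peak of the other line, and the dashed lines are the medians of all listed peaks. The tallest Ishikawa peaks stand over SLC2A12 and between the genes, where Hec1A has a single low peak.

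The signal of a peak is its tag count per 10000000 tags, as the authors deposited it. The 32 Ishikawa peaks ranged from 6.31 to 127 with a median of 11.1, and the median of the whole Ishikawa list was 9.69. The 5 Hec1A peaks ranged from 2.31 to 6.36 with a median of 3.22, below the median of 4.96 of the Hec1A list. The Ishikawa peaks of the locus were typical of their list in the middle of their range, and 4 of the 5 Hec1A peaks lay below the median of theirs. The 4 strongest Ishikawa peaks held 49.4% of the summed signal of the 32 peaks, and the strongest was 20.05 times the weakest. Signals of the whole Ishikawa list were also uneven, from 2.3 to 1267.5. The share held by its strongest peaks is not given here, so the 49.4% is a description of the locus only.

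The 4 strongest Ishikawa peaks lay within 70.4 kb, from within the SLC2A12 span into the stretch between the genes. The first, at chr6:134377299-134377651, had a signal of 127 and stood about 7.48 kb beyond the rounded end of the SLC2A12 span. It was 30.7 times its surrounding 10 kb and 40.8 times the pooled input, and ranked 711 in the list by the findPeaks score, the number of tags that the peak caller credits to a peak. The second, at chr6:134357043-134357395 within the span, had a signal of 105 and rank 965. Its fold over input was the highest of the locus at 136, with 3 input tags against 12 at the first peak, and its fold over the local region was 31.9.

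The third, at chr6:134427042-134427394 in the stretch between the genes, had a signal of 68.6, a fold over input of 24.1 and rank 1832. It stood 57.2 kb beyond the rounded end of the SLC2A12 span. The last of the 4, at chr6:134362141-134362493 within the SLC2A12 span, had a signal of 63.7, a fold over input of 49.5 and rank 2077. The interval from the first base of the second peak to the last base of the third held 5 Ishikawa peaks and 50.8% of the Ishikawa signal of the locus. It held 1 Hec1A peak.

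A pair of neighbouring Ishikawa peaks lay deeper in SLC2A12, 1 kb apart. The peak at chr6:134342291-134342643 had a signal of 34.0 and a fold over input of 16.5, and that at chr6:134341287-134341639 had a signal of 31.9 and a fold over input of 10.3. Peaks at this distance can draw on the same fragments and are not independent. Their folds over the local region were 9.78 and 7.26, lower than those of the 4 strongest peaks, with the highest local background of the SLC2A12 span at the second of them. The peak at chr6:134336785-134337137 in the same span had a signal of 21.5 and a fold over input of 7.57.

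The strongest Ishikawa peak within the SGK1 span, at chr6:134521104-134521456, had a signal of 25.8, stood 21.8 times above its local region and 16.6 times above input. The others in the span had signals of 16.3 and 7.59. The fold over the local region of the first was close to the 24.0 and 23.8 of the Ishikawa peaks at 134427042 and 134362141, and its local background was lower, at 1.19 tags per 10000000 against 2.86 and 2.68. The SGK1 span held 6.74% of the Ishikawa signal of the locus, the SLC2A12 span 40.9% and the stretch between them 31.0%.

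**Figure D2:**
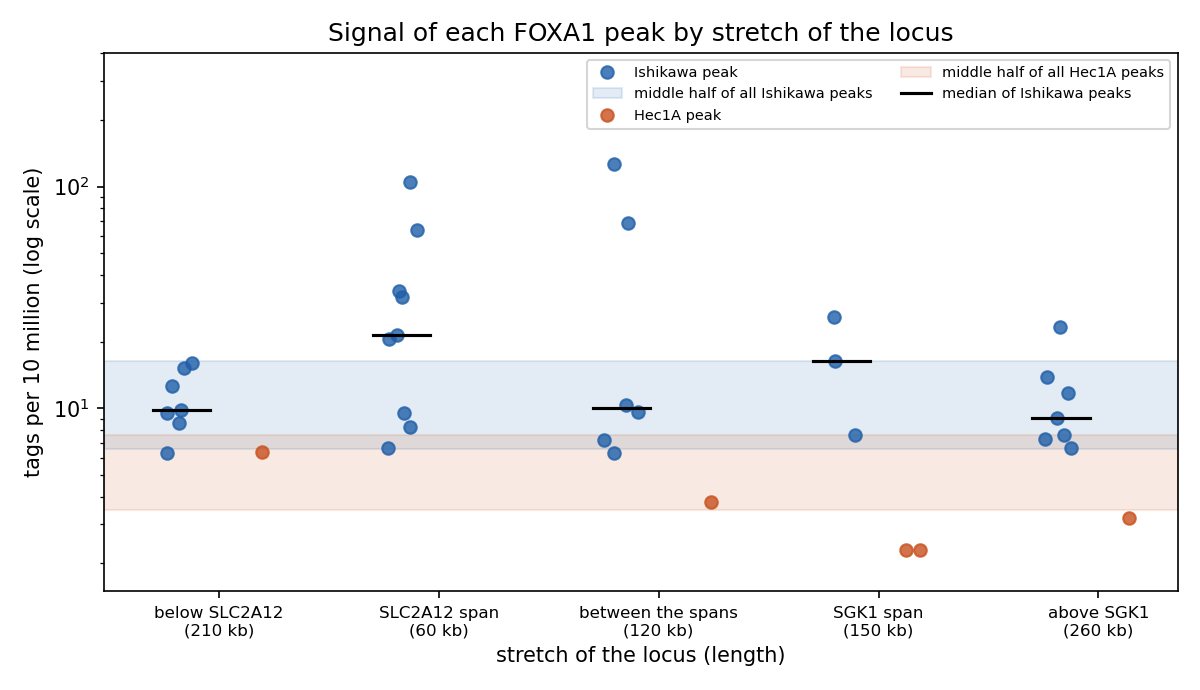
Signal of each FOXA1 peak in tags per 10000000 (log scale) by stretch of the locus, with blue points for Ishikawa, orange points for Hec1A and black bars for the Ishikawa medians. Shaded bands are the middle 50% of each whole list; Ishikawa medians were 21.5 in the SLC2A12 span and 9.86, 10.0, 16.3 and 9.08 in the other stretches from left to right.

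Of the 32 Ishikawa peaks, 6 (18.8%, exact 95% binomial interval 7.21% to 36.4%) were among the 10% of highest score in their list, where 10.0% of all Ishikawa peaks stand, and 0 were among the highest 1%, where 0.999% stand. All 6 lay in the SLC2A12 span or between the genes. A fold of at least 8 over the local region was reached by 13 of the 32 (40.6%), against 40.1% of the list. A fold of at least 8 over input was reached by 14 (43.8%), against 48.6% of the list. The shares by fold lie near the background, and that of the 10% of highest score is above it, with the background inside its interval. That interval treats peaks as independent, which neighbouring peaks of a pooled list need not be. The share is therefore a description and was not tested.

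Neighbouring Ishikawa peaks of the locus were a median of 11.4 kb apart, against 29.2 kb in the whole list. When peaks with centres at most 15 kb apart were joined, a distance chosen after the values were seen, 12 peaks formed a run of 75.4 kb from 134287106 to 134362493. That run begins below SLC2A12 and ends within its span. By number of peaks it ranked 2 among 38714 runs of the Ishikawa list, a rank it shares with the other runs of 12, which made 5 in all. By summed signal it ranked 159. The run held 8 peaks at a distance of 10 kb and 14 at 20 kb. No Hec1A peak was centred inside the run of 12. The widest interval between members, 133 kb, followed the first peak of the locus, and the next, 116 kb, began at the last peak of the SGK1 span.

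Laid end to end, windows of this length numbered 3701 over the extent of the Ishikawa list, with a median of 15 peaks. The locus had 32, and 96 windows (2.59%) had at least as many. By summed signal 168 windows (4.54%) were at least as high. In Hec1A the locus had 5 peaks against a median of 3, and 31.1% of 3758 windows had at least as many. Among the 96 windows richest in Ishikawa peaks, Hec1A peaks numbered from 0 to 22 with a median of 6, and 33 windows had fewer than this locus. The number of Hec1A peaks was therefore close to the median of windows as rich in Ishikawa peaks.

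**Figure D3:**
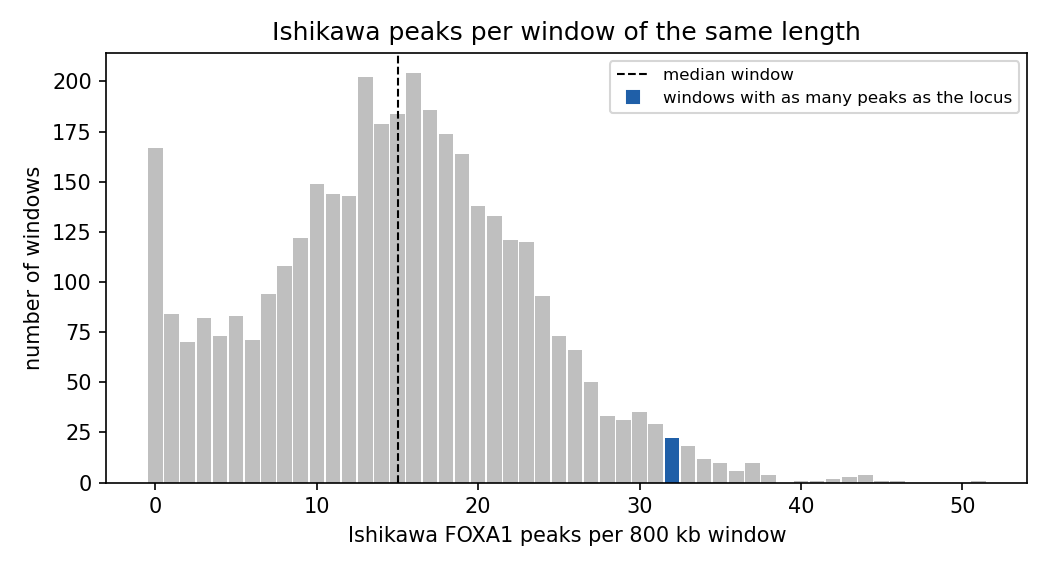
Number of windows of 800 kb (vertical axis) by the number of Ishikawa FOXA1 peaks they hold (horizontal axis). The blue bar marks windows with the 32 peaks of the locus, and the dashed line the median of 15.

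The 5 Hec1A peaks had scores of 60, 56, 34, 33 and 50 tags in the order of their positions, against a median of 57.5 in their list. The 2 peaks in the SGK1 span, with 34 and 33 tags, were close to the threshold of 32 tags. Exact 95% Poisson intervals ran from 45.8 to 77.2 for the highest and from 22.7 to 46.3 for the lowest. Such intervals cover counting error and treat tags as independent. Ishikawa scores ran from 129 to 3933 tags, above a threshold of 88. In tags per 10000000 the thresholds were 2.24 for Hec1A and 2.56 for Ishikawa, and each of the 32 Ishikawa peaks stood above both. This is usual for the Ishikawa list, whose lowest signal was 2.3 and whose first quartile was 6.55. A Hec1A peak missing from the list may have failed the local or the clonality filter in place of the tag threshold, so its absence sets no upper limit on binding.

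Overlap by at least 1 bp was found for 2 of the 5 Hec1A peaks (40%, exact 95% binomial interval 5.27% to 85.3%), against 52.9% of the Hec1A list. The same pairs were 2 of 32 Ishikawa peaks (6.25%, 0.766% to 20.8%), against 12.8% of the Ishikawa list. Both shares of the lists lie inside these intervals. The intervals treat peaks as independent, which neighbouring peaks of a pooled list need not be. The shares are therefore a description, and a difference from the lists was not tested. Neither pair was left when both lists were limited to clonal folds of 1 or less, since the Hec1A peak of the first pair had 1.42 and the Ishikawa peak of the second 1.03. None of the 4 strongest Ishikawa peaks had an overlapping Hec1A peak.

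The first pair lay below SLC2A12. The Hec1A peak at chr6:134245130-134245384 had a signal of 6.36, the highest of the Hec1A peaks, and its partner at chr6:134245095-134245447 had 16.1 in Ishikawa, a ratio of 2.53. Their centres were 14 bp apart. Over the local region the Hec1A peak stood higher, with a fold of 8.52 against 7.35. Its clonal fold of 1.42 was the highest of the 5. The clonal fold measures how far the tags of a peak stack on fewer positions than expected, and the peak caller removed peaks above 2. Its score of 60 tags was 65.9% of the tags that its signal implies, whereas the other 4 Hec1A peaks reached at least 99.9%.

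The second pair lay in the SGK1 span. The Hec1A peak at chr6:134559135-134559389 had a signal of 2.31 and a local fold of 4.40, and its partner at chr6:134559137-134559489 had a signal of 16.3 and a fold of 17.6. The ratio of signals was 7.06 and that of folds over the local region 3.998. Over all 7012 overlapping pairs of the lists the median ratio of signals was 3.53, with quartiles at 2.10 and 5.83. The first pair of the locus lay within these quartiles and the second above them, with 82.6% of pairs lower. For the ratio of local folds the median over all pairs was 1.90, with quartiles at 1.19 and 2.93. There the first pair, at 0.863, lay below the quartiles with 12.3% of pairs lower, and the second above them with 87.2% lower. Peaks were counted over 353 bp in Ishikawa and 254 bp in Hec1A, so these ratios do not compare equal lengths of DNA.

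**Figure D4:**
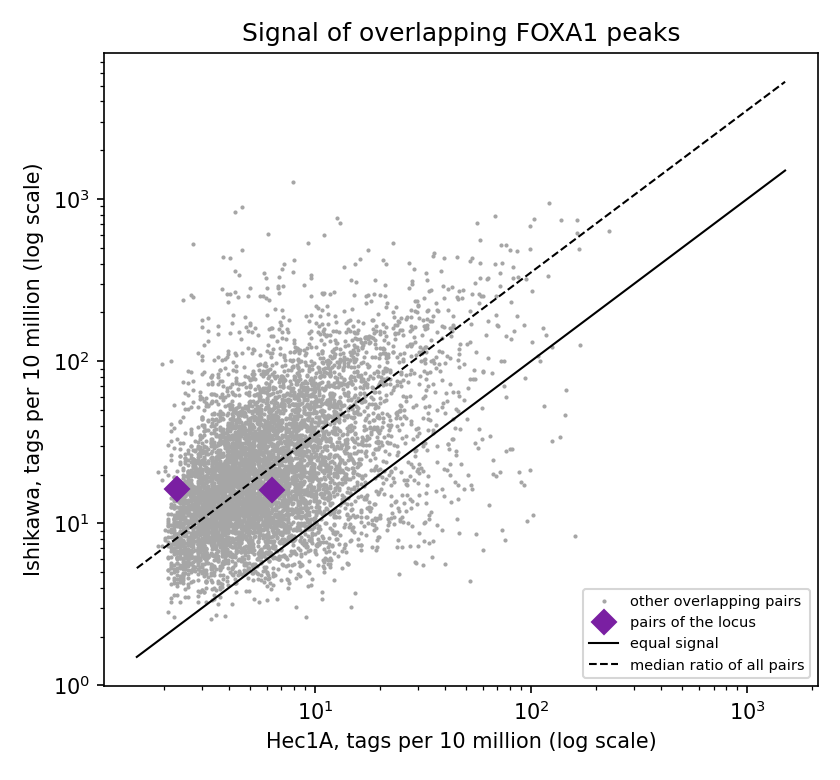
Ishikawa signal against Hec1A signal, both in tags per 10000000 on log scales, for all 7012 overlapping pairs (grey) and the 2 pairs of the locus (purple). The locus pairs have like Ishikawa signals, 16.1 and 16.3, and Hec1A signals of 6.36 and 2.31; the solid line is equal signal and the dashed line the median ratio of 3.53.

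The other 3 Hec1A peaks each lay near an Ishikawa peak without touching it. The peak at chr6:134373081-134373335, by the start side of SLC2A12, had its centre 4.27 kb from that of the strongest Ishikawa peak. It had a signal of 3.77, a local fold of 4.93 and a focus ratio of 0.731, the lowest of the 5. The focus ratio is a fraction, higher where more of the tags are placed close to the middle of the peak. The peak at chr6:134519275-134519529 in the SGK1 span had a signal of 2.31 and lay 1.88 kb from the strongest Ishikawa peak of that span. The peak at chr6:134788276-134788530 above SGK1 had a signal of 3.22 and lay 1.61 kb from an Ishikawa peak of signal 6.66.

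All 3 Hec1A peaks without overlap were therefore within 5 kb of an Ishikawa centre, against 20.6% of the Hec1A peaks without overlap in the whole list. The distance of 5 kb was chosen after the positions were seen and the locus was chosen by peak position, so these counts are a description. From the Ishikawa side, 4 of 30 peaks without overlap (13.3%) had a Hec1A centre within 5 kb, against 3.98% of the list.

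The local background of a peak is the signal over the fold against the surrounding 10 kb. By its median it was highest in the crowded SLC2A12 span. In Ishikawa its median was 2.68 tags per 10000000 in the SLC2A12 span, 1.88 below it, 1.63 between the genes, 1.17 in the SGK1 span and 1.29 above it, against 1.34 in the whole list. The highest value, 4.39, was at the peak at 134341287, and the strongest peak, which lay between the genes, had 4.12. The surrounding 10 kb includes neighbouring peaks wherever they are this close. The strongest peak had its nearest listed Ishikawa neighbour 6.93 kb away. Ishikawa input tags per peak had a median of 6 at the locus and 5 in the list, and ranged from 2 to 12. They were 12 at the strongest peak and at the peak at 134341287. The local background of the 5 Hec1A peaks ranged from 0.502 to 0.765, below the list median of 0.810 at each of them. The part of local background and input in the differences between stretches was not tested.

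Clonal folds above 1 were found for 7 of the 32 Ishikawa peaks (21.9%), against 25.1% of the list. Of these, 4 were among the 7 peaks above SGK1, 2 below SLC2A12 and 1 in the SGK1 span, and 0 lay in the SLC2A12 span or between the genes. The highest, 1.97 at chr6:134812636-134812988, was just under the limit of 2. Its signal of 11.7 implies 402 tags, and its score was 178 tags, or 44.3% of them. In 6 Ishikawa peaks the score was under 80% of the implied tags, and all 6 had a clonal fold above 1. In the other 26 it lay between 84.1% and 107%. The peak at 134691178, with 79.8%, was close to the cut of 80%. The share of the whole Ishikawa list under 80% is not given here, so these counts describe the locus only. The 4 peaks above SGK1 with a clonal fold above 1 ranked lower by score than by signal, and the peak at 134812636 stood 81.6% of the way down the list by score and 39.0% by signal. In Hec1A, 1 of 5 peaks had a clonal fold above 1, against 28.8% of the list, and 1 of 5 reached a fold of at least 8 against the surrounding 10 kb, as did 26.0% of the list. None of the 5 was among the 10% of highest score, where 10.1% of all Hec1A peaks stand.

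**Figure D5:**
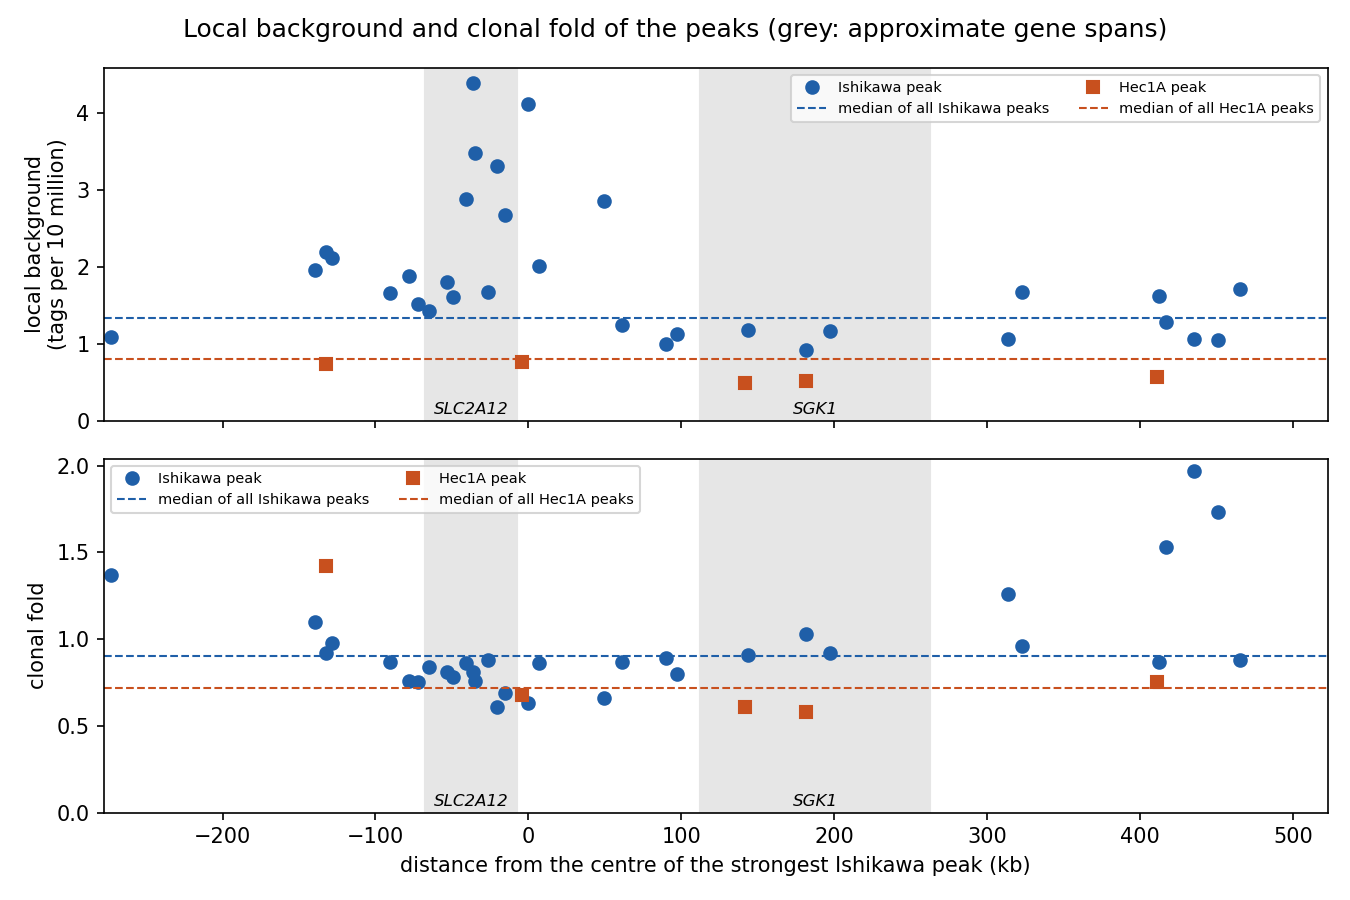
Local background in tags per 10000000 (top) and clonal fold (bottom) of each peak against distance in kb from the centre of the strongest Ishikawa peak, with circles for Ishikawa, squares for Hec1A and dashed lines for the medians of the whole lists. Grey bands are the approximate gene spans; Ishikawa background reaches 4.39 over SLC2A12, and clonal folds reach 1.97 above SGK1.

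The Ishikawa peak of lowest focus ratio, 0.596 at chr6:134299296-134299648 below SLC2A12, had a signal of 8.61 and a fold over input of 5.61. The median focus ratio was 0.840 for the Ishikawa peaks of the locus and 0.829 for the list, and 0.824 and 0.823 for Hec1A. In each list, the first and last members of the stretch lay on opposite sides of the median signal of that list. The first Ishikawa member, 4.72 kb inside the lower edge, had a signal of 6.31, and the last, 57.5 kb inside the upper edge, had 13.9. The nearest Ishikawa peaks outside had signals of 21.4, 37.1 kb below the lower edge, and 12.2, 62.2 kb above the upper edge, and the next ones outside had 6.81 and 7.48. The first and last Hec1A members had signals of 6.36 and 3.22. The nearest Hec1A peaks outside had signals of 5.45 and 2.87, and the next ones 3.43 and 8.25. All 4 of these outside Hec1A peaks overlapped an Ishikawa peak.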

How the data were processed

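The submitters' processing notes name the build hg19 and the tools HOMER 4.7.2, SAMtools 1.3.1 and Bowtie 1.1.2. HOMER findPeaks was run by the authors in factor style on pooled ChIP tags, line by line, per the file headers, at a false discovery rate of 0.001, a fold of 4 over the surrounding 10000 bp and a clonal limit of 2. Per the file headers, a fold of 4 over the pooled inputs was also required in Ishikawa, and the recorded Hec1A command names no input, so the lists passed unlike filters. Kits were mixed within each pool of ChIP libraries (TruSeq for 2 and ThruPLEX for 4 in Ishikawa, 1 and 2 in Hec1A), and an effect of the kit cannot be told apart.

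The deposited signal is a peak's tags per 10000000, the deposited focus ratio is a fraction, and the score that findPeaks gives, also deposited, is a number of tags. The deposited folds over local region, over input and of clonality are ratios, and the deposited p-value columns were not used. Input tags are a deposited signal of the pooled inputs, with 0.5 as the lowest value.

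Members were found by peak centre. Overlaps, windows, runs and exact intervals were computed with Python 3.11.15, pandas 2.3.3 and scipy 1.17.1. Overlap, nearest distance and window counts were tested on simulated lists. Peaks were named by these rules: every overlapping pair, the 8 of highest score per list, those at and 2 beyond each edge, and the highest clonal fold and lowest focus ratio of each list. The members, gene spans and rules were chosen with earlier results of these data known. Values per library, hg19 sequence and annotation were not used here, so motifs in peaks and related genes were not analysed here. Promoter and gene tables are RefSeq on GRCh38.p14, in which both genes matched.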

Additional observations from a re-analysis of the deposited data

How the results depend on the processing

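Of 41 alternatives over 12 results, 19 stayed within 1.5 times of a count or ratio, or inside the binomial interval of a share. With a local fold of at least 8 required, 13 Ishikawa peaks and 1 Hec1A peak were kept. An input fold of at least 8 left 14 Ishikawa peaks, and with the Ishikawa list reduced to the length of the Hec1A list 10 were left. These numbers follow from the thresholds. With a local fold of at least 8, 0 of 1 Hec1A peaks and 0 of 13 Ishikawa peaks had a partner. At a clonal fold of 1 or less these were 0 of 4 and 0 of 25, and with the reduced Ishikawa list 0 of 5 and 0 of 10. The shares of the whole lists at these settings are not given here, so these small counts are a description. The shares with a partner were unchanged with centres within 1 kb and with an overlap of 50% of the shorter interval.

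The share of windows with at least as many Ishikawa peaks was 3.91% at a clonal fold of 1 or less, 6.97% at a local fold of at least 8, and 4.54% by summed signal. Windows were also started at the middle of the former ones, so that 2 windows each held part of the locus and DNA outside it. The share was then 0.677% for the richer and 37.3% for the poorer of these 2, and neither is a value of the locus alone. The Hec1A shares were 27.0%, 51.7%, 45.1%, 41.0% and 53.6% in the same order. From folds over the local region, the ratio of Ishikawa to Hec1A was 0.863 in place of 2.53 in the first pair, which turns its direction, and 3.998 in place of 7.06 in the second. The cause was not tested.

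The distances that join peaks into runs were chosen after seeing the data. Searching motifs in peaks, the gene lists and the omission of single libraries could not be carried out here. No paired analysis was possible because peaks were called on pools of libraries. The 2 Hec1A peaks of the SGK1 span, with 34 and 33 tags, stood close to the threshold of 32. Their folds over the local region, 4.6 and 4.4, also stood close to the required fold of 4. The part of depth in this was not tested.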

Other observations

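The window of equal length just below the locus also held 32 Ishikawa peaks, with a summed signal of 696.8 tags per 10000000 against 737.4 at the locus. It held 1 Hec1A peak against 5. The window just above the locus held 20 Ishikawa peaks, with a summed signal of 283.2, and 2 Hec1A peaks. The Ishikawa list has 4.14 peaks for each Hec1A peak, and the locus, which was chosen by peak position, has 6.40. The lists come from unlike filters and depths. The 96 windows with at least as many Ishikawa peaks held a median of 6 Hec1A peaks, against 5 at the locus. A difference of the locus from the list was not tested.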
